A study of Mus musculus with 15 samples.

Results

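The genes described here encode subunits of Polycomb repressive complex 2 (PRC2), and they were followed across 6 lists of broad ChIP-seq peaks for H3K4me1 and H3K27ac in mouse embryonic stem cells (ESCs) and in the 2 kinds of expanded potential stem cells called D-EPSCs and L-EPSCs. The members were chosen by name and not by a rule on measured values, but with earlier results of these data known. They are Ezh2, Ezh1, Eed, Suz12, Jarid2, Mtf2 and Phf19, which are 7 of 22350 protein-coding genes on 20 chromosomes. Each gene span (mouse build mm9, GENCODE M1) was widened by 10 kb on each side, and the peaks and covered bases of every list were counted in that window.

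PRC2 methylates histone H3 at lysine 27, a modification tied to gene silencing during development. Ezh2 and Ezh1 are alternative catalytic subunits, Eed and Suz12 complete the core, and Eed binds the methylated histone that the complex makes. Jarid2, Mtf2 and Phf19 are accessory subunits that help to bring the core to its target genes, and Jarid2 belongs to a different form of the complex than Mtf2 and Phf19, which are Polycomb-like proteins. In ESCs, PRC2 is known for marking the promoters of developmental regulators, and acetylation and methylation of the same lysine exclude each other on 1 histone tail. H3K27ac marks active promoters and enhancers, whereas H3K4me1 marks enhancers, active or not, and the flanks of active promoters.

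The ESCs were the J1 line of strain 129SV, kept in serum medium with LIF and the 2i inhibitors (CHIR99021 and PD0325901), on mouse embryonic fibroblast feeders or on gelatin. D-EPSCs, of the same strain, were kept in N2B27 medium with serum replacement, LIF, CHIR99021, dimethindene maleate and minocycline. L-EPSCs, also of that strain, were kept in serum replacement medium with LIF, CHIR99021, PD0325901, A-419259, XAV939, JNK inhibitor VIII and SB203580, on feeders or gelatin. The study derived both EPSC states by switching ESCs to the new media, so medium and cell state cannot be told apart, and the cultures of a state share 1 line. Each mark was profiled in 2 samples per state against 1 input sample per state (15 samples), but only 1 peak list stood for both samples. Differences between states therefore come without a check against replicates, and no p-value could be given. Where 3 values follow one another without further words, they are in the order ESCs, D-EPSCs, L-EPSCs.

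Peak positions carry no read depth, and the lists differed in length. The H3K27ac lists held 64342, 32782 and 26966 peaks, and the H3K4me1 lists 107222, 102751 and 105306. For that reason the main counts of members are set beside the percentage of all protein-coding genes that met the same criterion. Defining genes of pluripotent cells (Pou5f1, Sox2, Nanog, Zfp42 and Tdgf1) had an H3K27ac peak at the promoter in 5 of 5 cases in every state, and feeder fibroblast genes (Col1a1, Col1a2, Col3a1, Thy1, Pdgfrb and Lum) in 0 of 6. Of the fibroblast genes, Col1a1 still had 11.1 kb of H3K27ac in its ESC window (1.03 kb for D-EPSCs and 1.89 kb for L-EPSCs). The other fibroblast genes had less and did not share a direction. Col3a1 had 2.19, 1.93 and 1.03 kb, and Col1a2 had 0.318, 0.683 and 0 kb. Pdgfrb had 0.566 kb in ESCs only, Lum had 0.657 kb in D-EPSCs only, and Thy1 had none. Per the study's methods, both kinds of EPSCs had been kept without feeders for several passages when they were taken for ChIP-seq. The part of feeder cells in the ESC lists was not tested.

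H3K27ac lay over the start site of 5 members (Ezh2, Eed, Suz12, Jarid2 and Mtf2) in all 3 states and over that of Ezh1 and Phf19 in none. Among all genes it lay over the start site in 21.5%, 24.4% and 17.4%. The 250 bases before the start site of Ezh2 and Suz12, from the acetylated class, and of Ezh1 and Phf19, from the other, are shown 5′ to 3′ on the gene's own strand of mm9. They lie at chr6:47545341-47545590 (minus strand, Ezh2), chr11:79806358-79806607 (plus strand, Suz12), chr11:101087778-101088027 (minus strand, Ezh1) and chr2:34769547-34769796 (minus strand, Phf19). Capitals mark matches on either strand to GCGGGAA (the E2F string), ATGGCGG (YY1) and GGGCGG (the GC box).
Ezh2: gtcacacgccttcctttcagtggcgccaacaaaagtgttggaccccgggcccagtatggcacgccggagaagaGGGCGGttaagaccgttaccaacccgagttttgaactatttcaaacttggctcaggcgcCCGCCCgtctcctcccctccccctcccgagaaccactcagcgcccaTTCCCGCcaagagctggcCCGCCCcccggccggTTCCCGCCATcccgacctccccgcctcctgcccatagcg
Suz12: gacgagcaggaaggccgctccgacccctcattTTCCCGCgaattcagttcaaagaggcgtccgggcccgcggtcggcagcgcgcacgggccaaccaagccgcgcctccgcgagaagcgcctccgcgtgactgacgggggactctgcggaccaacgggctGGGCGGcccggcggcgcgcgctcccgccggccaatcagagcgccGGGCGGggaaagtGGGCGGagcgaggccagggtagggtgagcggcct
Ezh1: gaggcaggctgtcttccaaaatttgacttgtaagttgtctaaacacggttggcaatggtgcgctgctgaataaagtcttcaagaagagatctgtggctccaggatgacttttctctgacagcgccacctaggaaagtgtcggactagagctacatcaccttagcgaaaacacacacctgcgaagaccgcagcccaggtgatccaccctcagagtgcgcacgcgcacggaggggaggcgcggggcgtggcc
Phf19: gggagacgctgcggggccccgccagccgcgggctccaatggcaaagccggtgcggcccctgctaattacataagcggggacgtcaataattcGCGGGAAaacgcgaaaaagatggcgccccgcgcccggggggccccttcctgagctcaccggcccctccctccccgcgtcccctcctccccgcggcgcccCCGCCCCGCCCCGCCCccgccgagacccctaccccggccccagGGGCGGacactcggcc

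Strings were searched from 250 bases before to 50 bases after the start site. The E2F string stood in 3 members, Ezh2 (at -72 and at -39), Suz12 (at -218) and Phf19 (at -158), against 5.59% of 22345 promoters of protein-coding genes. GC boxes stood in 4 members (Ezh2, Suz12, Mtf2 and Phf19) against 43.5% of promoters, and those of Phf19 between -59 and -44 overlapped one another. YY1 matched in Ezh2 only, at -36, where it shared bases with the second E2F string, and 4.97% of promoters held it. The ETS (CCGGAAG) and NRF1 (GCATGCG) strings matched in 0 members, against 10.8% and 4.29% of promoters. CpG number at the first annotated start did not follow the acetylation: Suz12 had 41 CpGs in these 300 bases and Phf19 37, Mtf2 had 30, Ezh2 25, Ezh1 23, Eed 17 and Jarid2 8, where the median promoter had 11. Jarid2 has other annotated starts 1300 to 1813 bases downstream, where CpGs were not counted. Matches to short strings are descriptions of the sequence and show no binding.

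The first comparison asked how much H3K27ac the PRC2 genes carried in either EPSC state relative to ESCs. All 7 members had fewer bases under H3K27ac peaks in both EPSC states, and the other genes did so too in large part. In D-EPSCs, 87.4% of 12059 genes with at least 1 kb in either state had fewer bases, and 61.0% had at least 2-fold fewer, which held for 7 of 7 members. In L-EPSCs these shares were 94.8% and 79.0% of 11684 genes, again against 7 of 7 members. The median log2 ratio of covered bases to those of ESCs was -2.05 for the members and -1.33 for all genes in D-EPSCs, and -2.74 and -2.02 in L-EPSCs. Summed over the members, H3K27ac covered 158, 55.0 and 39.0 kb. Jarid2 alone held 49.3% to 52.5% of these bases, and the other 6 genes had 80.3, 26.1 and 18.8 kb.

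Because the ESC list was the longest, the comparison was repeated on the widest peaks of each list up to the covered bases of the shortest list (34.3 Mb of H3K27ac, for which 3725 ESC peaks sufficed). The cut was by width and kept 13675 D-EPSC peaks and all 26966 L-EPSC peaks. A gene without one of the widest ESC peaks could then not have fewer bases in an EPSC state. The counts at this setting therefore depend on peak width, and they do not correct for list length alone. Among all genes the direction then turned, with 28.7% having fewer H3K27ac bases in D-EPSCs and 33.2% in L-EPSCs. Among the members, 5 still had fewer bases in either EPSC state, Ezh2 had more (0, 1.86 and 1.61 kb) and Phf19 had none in any state. At least 2-fold fewer bases were then found in 2 members in D-EPSCs (Ezh1 and Suz12) and in 4 in L-EPSCs (Ezh1, Eed, Suz12 and Jarid2), beside 15.4% of 8032 and 17.8% of 7109 genes.

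**Figure D1:**
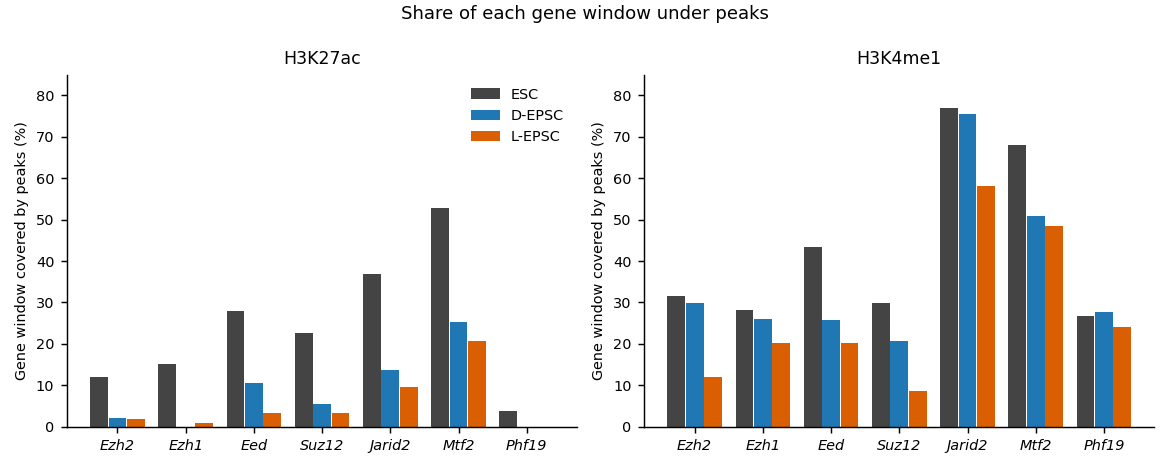
Percentage of each gene window (gene span with 10 kb on each side) under H3K27ac peaks (left) and H3K4me1 peaks (right), with 1 bar per cell state and 1 peak list per bar. Every ESC bar exceeds both EPSC bars for H3K27ac, and for H3K4me1 the D-EPSC bar of Phf19 stands above its ESC bar (27.6% against 26.8%).

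Ezh2, the main catalytic subunit in proliferating cells (chr6, minus strand, a span of 65.1 kb), kept H3K27ac only at its promoter in the EPSCs. ESCs had 4 H3K27ac peaks in the window with 10.3 kb in all. These were the promoter peak from -1979 to 1702 bases around the start site, an upstream peak of 4.74 kb from -7224 to -2487, and intron peaks of 1.57 kb at 6077 and of 0.282 kb at 15191. D-EPSCs retained 1.86 kb and L-EPSCs 1.61 kb, each as a single promoter peak, and all of these bases lay within the ESC peaks. H3K4me1 separated the 2 EPSC states at this gene. It covered 26.9 kb in ESCs and 25.4 kb in D-EPSCs, in each case mainly as 1 domain upstream of the start and 1 of about the same extent downstream (17.1 and 17.2 kb). In L-EPSCs 10.1 kb remained, cut into 8 peaks of at most 2.99 kb, a log2 ratio of -1.41 to ESCs and of -1.33 to D-EPSCs. Only 3.80% of all genes had a lower ratio to ESCs, and 1.59% a lower ratio to D-EPSCs.

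Ezh1, the alternative catalytic subunit, known for its expression in non-dividing cells (chr11, minus strand, 35.3 kb), carried no H3K27ac on its start site in any state. The ESC peaks lay upstream, from -8697 to -6393 and from -6028 to -838, and with a small intron peak and a peak at the far end of the gene they covered 8.33 kb. No H3K27ac peak was listed in the D-EPSC window. L-EPSCs had 2 short peaks of 0.236 and 0.257 kb (0.493 kb in all), both inside the upstream ESC region. The same upstream region stayed under H3K4me1: its peak measured 8.79, 8.76 and 6.98 kb. All 8334 acetylated ESC bases had H3K4me1 as well.

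**Figure D2:**
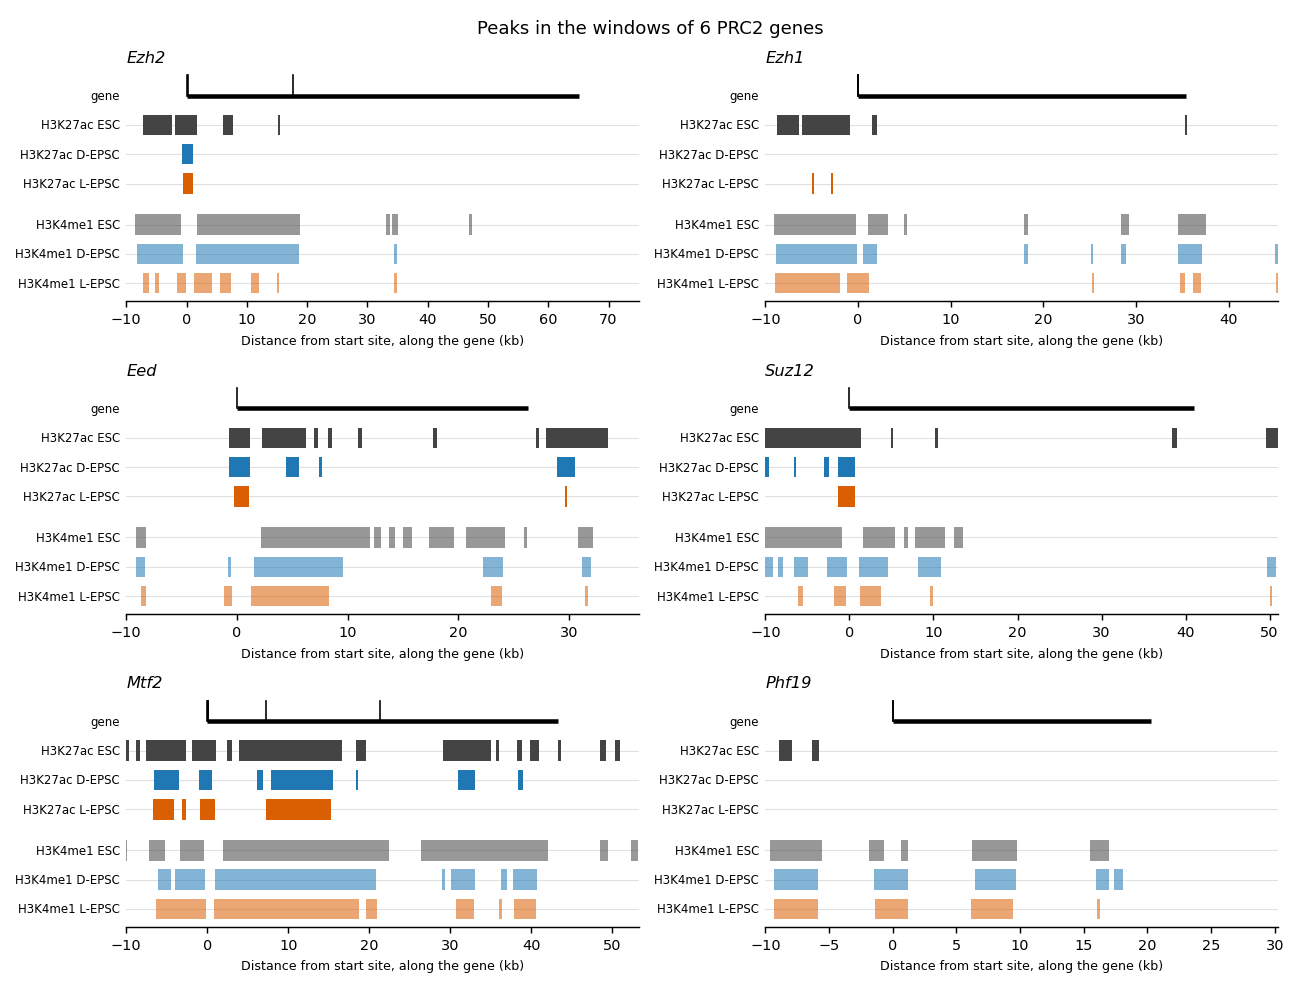
H3K27ac and H3K4me1 peaks of each state in the windows of Ezh2, Ezh1, Eed, Suz12, Mtf2 and Phf19, drawn by distance in kb from the start site along the gene (black bar, with ticks at annotated transcript starts). H3K27ac outside the promoter is sparse in both EPSC states except in Mtf2, and the H3K4me1 domain downstream of the Ezh2 start is whole in ESCs and D-EPSCs and broken in L-EPSCs.

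Eed, the core subunit that binds methylated H3K27 (chr7, minus strand, 26.3 kb), had 12.9 kb of H3K27ac in ESCs. D-EPSCs had 4.91 kb and L-EPSCs 1.58 kb. Its L-EPSC bases were 32.2% of its D-EPSC bases. Of the 5 members compared between these states, it was the 1 with at least 2-fold fewer bases in L-EPSCs, beside 33.8% of 9447 genes. The promoter peak was nearly the same in ESCs and D-EPSCs, with widths of 1856 and 1876 bp, and spanned 1379 bp in L-EPSCs. What differed lay elsewhere. A peak of 3.96 kb from 2231 to 6194 in ESCs was represented by 1.17 kb in D-EPSCs and by none in L-EPSCs, and a peak of 5.57 kb past the far end of the gene by 1.62 and 0.202 kb. H3K4me1 was lower in the EPSCs too, from 20.2 kb in ESCs to 11.9 kb (D-EPSCs) and 9.41 kb (L-EPSCs).

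Suz12, the core subunit needed for the stability and activity of PRC2 (chr11, plus strand, 41.0 kb), sat at the edge of a long acetylated region in ESCs. Its promoter peak ran from -7530 to 1320 (8.85 kb), and a peak of 15.1 kb from -22677 to -7583 lay directly upstream, of which the part beyond -10000 is outside the window. Within the window H3K27ac covered 13.9 kb in ESCs, while D-EPSCs had 3.35 kb and L-EPSCs 2.08 kb. The promoter peaks of the EPSCs were of nearly equal width, 2078 and 2081 bp, and both ended at 684. Farther upstream the region was not empty: D-EPSCs had a peak of 9.57 kb from -19186 to -9612, and L-EPSCs had peaks of 4.14 and 1.11 kb between -19252 and -12564. H3K4me1 covered 18.3, 12.7 and 5.20 kb. The log2 ratio of L-EPSCs to ESCs, -1.81, was the lowest of the members in this window, and 1.37% of genes had a lower one. Just beyond the window, L-EPSCs had an H3K4me1 peak of 4.16 kb that ended at -10259. With 50 kb on each side, H3K4me1 covered 25119 bases in L-EPSCs against 62437 in ESCs at Suz12, and 14426 against 36823 at Ezh2.

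Short intron peaks of H3K27ac occurred in Ezh2, Eed, Suz12 and Jarid2 in ESCs, and 2 of them are shown because they were absent from both EPSC lists while differing in H3K4me1. The Ezh2 element (chr6:47529868-47530149, mm9, minus strand, 282 bases, in an intron) had H3K4me1 in all 3 states. The Suz12 element (chr11:79816818-79817108, mm9, plus strand, 291 bases, in an intron) had H3K4me1 in ESCs and D-EPSCs but not in L-EPSCs. Capitals mark the octamer string ATGCAAA on either strand, which the Suz12 element held 2 times. It was 1 of 4 strings searched (the others were AAGGTCA for Esrrb, AACAATG for Sox and GGGTGTG for Klf) in 7 such intron peaks of at most 300 bases, and the other 6 held none of the 4. The octamer string stood in 4.98% of 291-base stretches at the centres of ESC H3K27ac peaks.
Ezh2 intron: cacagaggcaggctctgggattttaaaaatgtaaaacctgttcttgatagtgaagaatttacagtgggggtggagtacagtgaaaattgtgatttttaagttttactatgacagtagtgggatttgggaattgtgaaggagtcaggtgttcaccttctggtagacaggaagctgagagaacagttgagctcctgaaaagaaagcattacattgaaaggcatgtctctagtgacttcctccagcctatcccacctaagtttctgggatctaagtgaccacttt
Suz12 intron: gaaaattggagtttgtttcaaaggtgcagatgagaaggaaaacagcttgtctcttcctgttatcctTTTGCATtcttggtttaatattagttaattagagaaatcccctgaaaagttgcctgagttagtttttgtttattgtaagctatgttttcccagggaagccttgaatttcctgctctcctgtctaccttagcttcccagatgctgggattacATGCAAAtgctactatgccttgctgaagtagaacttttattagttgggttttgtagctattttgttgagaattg

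Jarid2, the accessory subunit that joins PRC2 to chromatin and resembles a histone demethylase without its activity, was the largest member (chr13, plus strand, 192 kb) and the one with the most marked bases. Its window held 37 H3K27ac peaks and 78.0 kb in ESCs, 13 peaks and 28.9 kb in D-EPSCs, and 11 peaks and 20.2 kb in L-EPSCs. The region before the start site kept most of its acetylation. Of the 10.0 kb upstream, 94.7% was covered in ESCs and 92.6% in D-EPSCs, but 58.0% in L-EPSCs. Between the first start and a group of late annotated starts 111217 bases into the gene, coverage was 36.2%, 14.5% and 10.4%. From the late starts to the end of the window it was 31.0%, 3.82% and 3.07%. The ESC peak over the late starts, 0.576 kb wide, had no counterpart in either EPSC state, and a peak of 14.6 kb farther on, from 117475, was represented by a main peak of 3.27 kb in D-EPSCs and of 2.11 kb in L-EPSCs.

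H3K4me1 at Jarid2 changed much less. It covered 163, 160 and 123 kb, which was 77.0%, 75.4% and 58.1% of the window. Its widest peak measured 66.1 kb in ESCs and 82.1 kb in D-EPSCs, while L-EPSCs had 35 peaks with a widest one of 31.1 kb. Of the ESC bases under H3K4me1, 93.3% were kept in D-EPSCs and 72.6% in L-EPSCs, whereas 34.6% and 25.6% of the H3K27ac bases were.

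**Figure D3:**
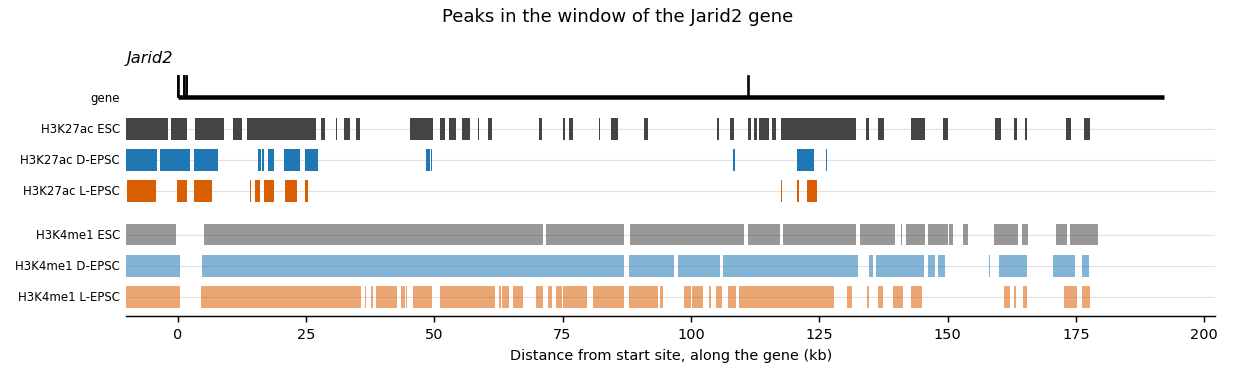
H3K27ac and H3K4me1 peaks of each state across the Jarid2 window, by distance in kb from the start site along the gene (black bar, ticks at annotated transcript starts). In the EPSCs most H3K27ac lies before and near the first start, and few peaks lie after the late starts (2 in D-EPSCs and 3 in L-EPSCs). H3K4me1 runs on through most of the gene.

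Mtf2, a Polycomb-like accessory subunit (chr5, plus strand, 43.3 kb), retained the largest share of its H3K27ac among the members in the full lists. The mark covered 33.4 kb in ESCs, and 48.0% as many bases in D-EPSCs (16.0 kb) and 39.1% in L-EPSCs (13.0 kb). The widest ESC peak lay inside the gene, from 3868 to 16665 (12.8 kb), across an annotated transcript start at 7241. It persisted as peaks of 7.65 kb from 7827 in D-EPSCs and of 8.03 kb from 7266 in L-EPSCs, and D-EPSCs had a further peak of 0.724 kb from 6161 to 6884, before that start. Neither EPSC list covered the start at 7241 itself with H3K27ac. The neighbouring gene Tmed5 overlaps the far end of the window, and without its bases ESCs had 31227 H3K27ac bases and the EPSCs the same as before. H3K4me1 covered 43.0, 32.2 and 30.6 kb.

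Phf19, the other Polycomb-like subunit (chr2, minus strand, 20.3 kb), had no H3K27ac at its promoter in any state. ESCs had 2 upstream peaks of 1.06 and 0.475 kb, between -8944 and -5827, and neither EPSC list had a peak in the window. H3K4me1 was almost level, with 10.8, 11.1 and 9.69 kb. Phf19 was the only member with more H3K4me1 in D-EPSCs than in ESCs in the full lists, and in lists of equal covered bases Ezh2 had more as well (24.9 against 24.7 kb).

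**Figure D4:**
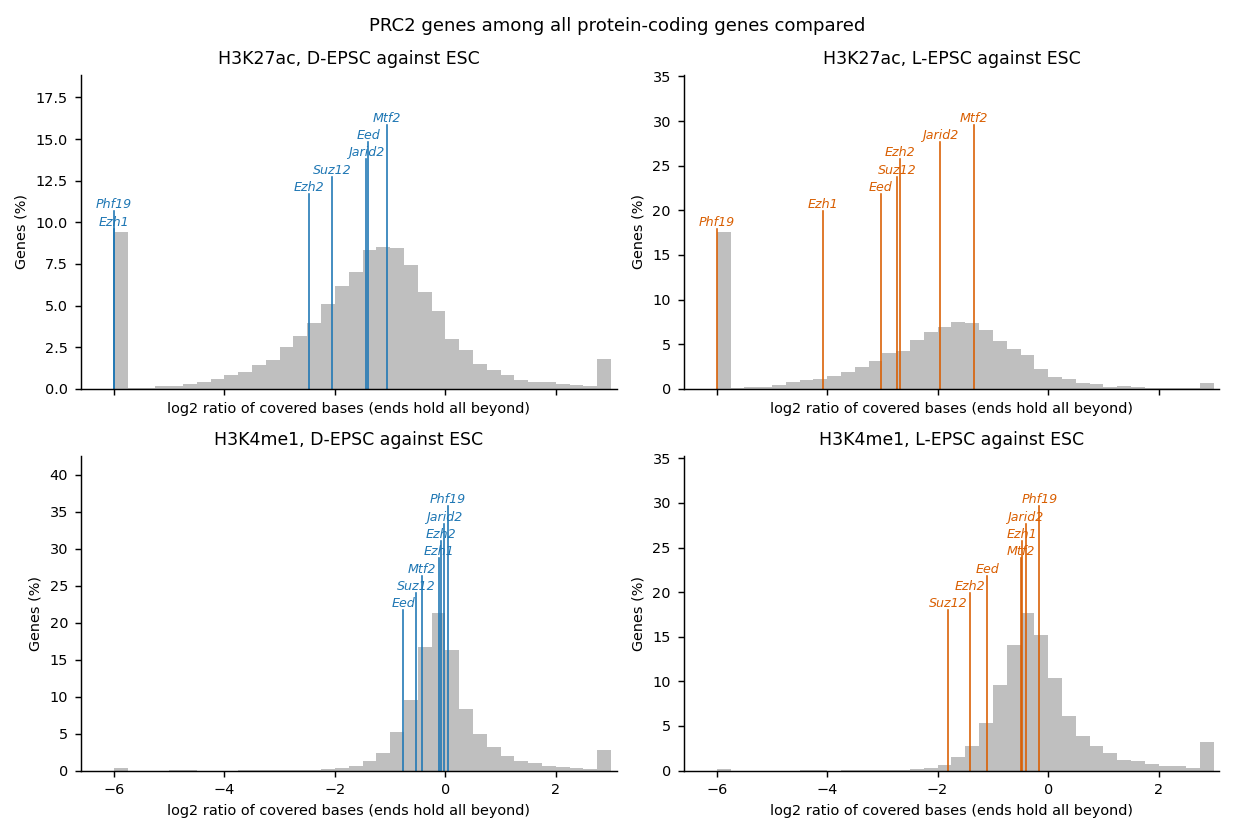
Log2 ratio of covered bases over ESCs for the 7 members (lines) and for all protein-coding genes with at least 1 kb in either state (grey bars, percentage of genes per bin of 0.25), with ratios at or beyond the ends of the axis drawn in the end bins. Ezh1 and Phf19 have no H3K27ac in D-EPSCs and Phf19 none in L-EPSCs, so they stand in the lowest bin, and Suz12, Ezh2 and Eed lie left of the bulk of genes for H3K4me1 in L-EPSCs.

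Across the members, H3K4me1 differed between states by an amount that varied from gene to gene. In D-EPSCs the covered bases were 59.2% of those of ESCs at Eed, 69.5% at Suz12 and 74.9% at Mtf2, and between 92.0% and 103% at the other 4 members. In L-EPSCs they were 28.5% at Suz12, 37.6% at Ezh2 and 46.7% at Eed, and between 71.3% and 89.7% at the others. In D-EPSCs, 6 of 7 members had fewer bases (58.3% of 17332 genes) and 0 had at least 2-fold fewer (5.53%), with a median log2 ratio of -0.12 against -0.10 for all genes. In L-EPSCs, 7 of 7 had fewer bases (67.7% of 17464 genes), and 3, namely Ezh2, Eed and Suz12, had at least 2-fold fewer (11.2%). The median log2 ratio of all 7 members was -0.49 against -0.29 for all genes. In lists of equal covered bases (173 Mb), 5 members had fewer bases in D-EPSCs and 6 in L-EPSCs, where 37.4% and 42.7% of genes did.

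The 2 EPSC states were also set against each other. L-EPSCs had fewer H3K4me1 bases than D-EPSCs at 7 of 7 members (68.9% of 17537 genes), and at least 2-fold fewer at Ezh2 and Suz12 (4.02%). For H3K27ac, 5 members had at least 1 kb in either EPSC state, and 5 of these 5 had fewer bases in L-EPSCs (76.4% of genes). The median log2 ratio of those members was -0.52 and that of all genes -0.57. Ezh1 was left out of that count with 0.493 kb in L-EPSCs and no peak in D-EPSCs, and Phf19 with none in either.

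At the start sites, both marks changed shape in the EPSCs. Active start sites usually have H3K4me1 on both sides and a stretch without it between them, and the length of that stretch is given here as the H3K4me1-free stretch. It was shorter than in ESCs in 7 of 7 members in D-EPSCs and in L-EPSCs, as it was in 92.9% of 10961 and 92.3% of 11010 genes. Among genes with H3K27ac on the start site in both states, the 5 such members stood beside 99.4% of 3249 genes in D-EPSCs and 99.5% of 2678 in L-EPSCs, so this change was nearly general. The median of the members went from 2501 bp in ESCs to 1142 bp (D-EPSCs) and 986 bp (L-EPSCs), and that of all genes from 1739 to 1025 bp and from 1738 to 826 bp.

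Gene by gene, the stretch at Ezh2 measured 2761, 2027 and 1466 bp, and the H3K4me1 edge upstream moved from -955 to -519 and -167. At Mtf2 it measured 2281, 1142 and 986 bp, and at Suz12 2501, 1492 and 1662 bp. Eed had the longest, 10327 bp in ESCs, since the nearest upstream H3K4me1 peak began 8187 bases away, and 2051 and 1758 bp in the EPSCs, where a promoter peak of 0.252 and 0.751 kb was added. Ezh1 and Phf19, which had no H3K27ac on the start site, lost the stretch altogether in part of the states. Ezh1 had 1262 bp in ESCs and 644 bp in D-EPSCs, while its start site lay under H3K4me1 in L-EPSCs. Phf19 had 1303 bp in ESCs, and a single peak closed it over the start site in both EPSC states (2.69 kb for D-EPSCs, 2.61 kb for L-EPSCs). Jarid2 went from 5424 bp to 0 at its first annotated start, but other annotated starts from 1300 to 1813 bases downstream stayed free of H3K4me1 in all 3 states. In total, H3K4me1 covered the start site of 0, 2 and 3 members, against 11.4%, 26.2% and 31.8% of all genes.

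Of the 5 members with an H3K27ac promoter peak in every state, the peak was narrower than in ESCs at 3 in D-EPSCs (64.4% of 6464 genes with a peak in both) and at 5 in L-EPSCs (77.8% of 5632). Its width was 3682, 1857 and 1609 bp at Ezh2 and 8851, 2078 and 2081 bp at Suz12. At Mtf2 it was 2932, 1619 and 1897 bp. Jarid2 went the other way in D-EPSCs, with 3148, 5853 and 1942 bp. That width depends on where a short gap falls. The next upstream peak ended at -1866 in ESCs and at -4088 in D-EPSCs, and the promoter peak began at -1332 and at -3345. The 10.0 kb before the start site was covered to 94.7% and 92.6%. Counting all peaks within 1 kb of the start, H3K27ac was found at 6 members in ESCs (35.7% of genes) and at 5 in D-EPSCs (35.3%) and L-EPSCs (28.8%), Ezh1 making the difference.

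**Figure D5:**
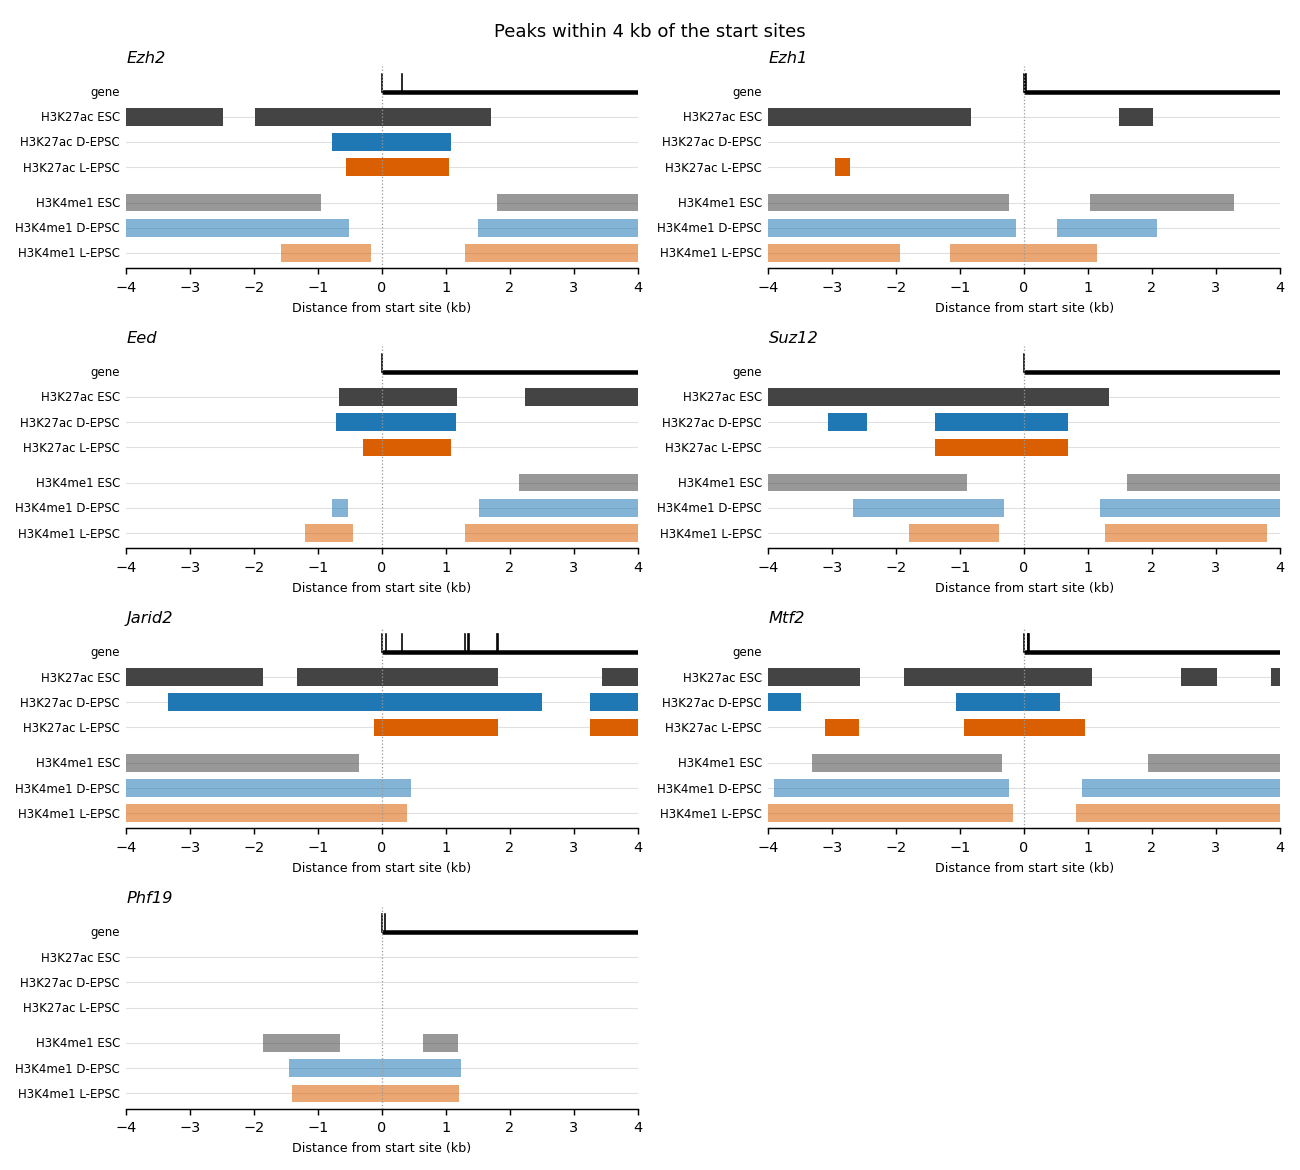
H3K27ac and H3K4me1 peaks within 4 kb of the start site of the 7 members, by distance in kb (dotted line, start site; ticks, annotated transcript starts). The H3K4me1 edges lie closer to the start site in both EPSC states than in ESCs, and at Phf19 the peaks join over it.

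Away from the promoters a smaller share of the members' H3K27ac remained. Peaks that touched the promoter (1 kb on each side of the start site) covered 25.7 kb in ESCs, and D-EPSCs had 51.8% and L-EPSCs 34.7% of that. The other peaks covered 133 kb, of which 31.5% and 22.7% remained. Over all genes the shares were 56.7% and 40.5% at promoters and 36.4% and 27.3% elsewhere. Without Jarid2, promoter and other peaks were alike in D-EPSCs (33.0% and 32.4%), so the contrast there rests on Jarid2, while in L-EPSCs they were 30.9% and 20.5%. The D-EPSC promoter peak of Jarid2 takes in bases that belong to a separate upstream peak in ESCs.

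Inside introns, ESCs had 43 H3K27ac peaks in the members, 30 of them in Jarid2. A D-EPSC peak overlapped 5 of them, which is 11.6% (95% Wilson interval 5.07 to 24.5, for counting error only) beside 25.4% of 25861 intron peaks of all genes. An L-EPSC peak overlapped 2, or 4.65% (1.28 to 15.5), beside 17.9%. In lists of equal length 12 ESC intron peaks remained, of which D-EPSCs overlapped 3 (25.0%) and L-EPSCs 2 (16.7%), beside 42.5% and 37.3% of 9031 over all genes. Neighbouring peaks of 1 gene are not independent, so the interval is too narrow for a comparison of conditions. In Jarid2, 4 and 2 of 30 were overlapped, and in the other 6 members 1 and 0 of 13. Peaks that touch an exon are not in these counts. Among those left out are the ESC peaks of 14.6 kb in Jarid2 and 12.8 kb in Mtf2, each overlapped by H3K27ac in both EPSC states. The widest intron peak with no H3K27ac in either EPSC was 2.01 kb long, at 113180 in Jarid2. In the other direction, of 16 D-EPSC and 9 L-EPSC intron peaks of the members 1 had no ESC peak, a peak of 0.238 kb at 7415 in Eed in D-EPSCs.

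H3K4me1 often remained where H3K27ac did not. All 43 intron peaks had H3K4me1 in ESCs, and of the 38 without H3K27ac in both EPSCs, 30 (78.9%) had H3K4me1 in both, compared with 52.6% over all genes. Jarid2 accounts for 24 of those 30, where H3K4me1 covers most of the gene in every state, and the other members for 6 of 12. Measured by bases, 33.4% of the members' ESC H3K27ac was kept in D-EPSCs and 24.5% in L-EPSCs (31.4% and 24.9% over all genes), and 84.1% and 61.9% of the H3K4me1 (67.9% and 58.6%). Jarid2 held 54.8% of the members' ESC H3K4me1 bases and kept 93.3% and 72.6% of its own. The other members kept between 54.6% (Eed) and 91.9% (Ezh2) in D-EPSCs, and between 22.3% (Suz12) and 76.8% (Phf19) in L-EPSCs. Few acetylated bases of the 7 members were new: 4.08% of the D-EPSC and 0.498% of the L-EPSC bases lay outside ESC peaks, compared with 20.1% and 14.4% over all genes. The all-gene shares also hold genes without H3K27ac in ESCs, where every EPSC base is new, whereas all members had some. Jarid2 supplied 1.89 of the 2.25 kb of new D-EPSC bases and all 0.194 kb of the L-EPSC ones.

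Overlap of both marks differed between the members. In ESCs, H3K4me1 covered all of the H3K27ac bases at Ezh1 and Phf19, 93.5% at Jarid2, 83.2% at Mtf2, 74.1% at Ezh2, 69.4% at Suz12 and 51.8% at Eed. At Ezh2, where the EPSC peaks were confined to the promoter, this dropped to 13.9% in D-EPSCs and 24.9% in L-EPSCs, and at Mtf2 it was 88.5% and 90.3%. Read the other way, 64.6% of the H3K4me1 bases of Mtf2 were acetylated in ESCs and 44.1% and 38.5% in the EPSCs, the highest of the members in each state.

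Other genes of the pathway were taken from lists. Of 8 further PRC2 subunits, 7 had at least 1 kb of H3K27ac, 6 of them with fewer bases in D-EPSCs and 7 in L-EPSCs than in ESCs, and 3 and 5 with at least 2-fold fewer. The all-gene shares given above were 87.4% and 94.8% for fewer bases, and 61.0% and 79.0% for at least 2-fold fewer. The median log2 ratios of these subunits were -0.73 and -1.85, less negative than the -1.33 and -2.02 of all genes. Aebp2, a partner of Jarid2 in PRC2, had 25.8, 9.75 and 12.5 kb. Rbbp4, a histone-binding subunit, had 14.6, 1.90 and 1.59 kb, and Epop, which binds PRC2 together with Mtf2, had 13.7, 5.13 and 3.81 kb. Rbbp7 differed less, with 2.22, 1.79 and 1.83 kb. Among 23 genes of Polycomb repressive complex 1 (PRC1), the complex that ubiquitinates histone H2A, 13 of 17 had fewer bases in D-EPSCs and 15 of 16 in L-EPSCs, with median log2 ratios of -1.25 and -2.00, close to the -1.33 and -2.02 of all genes.

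At least 2-fold fewer bases were found for 9 of 17 PRC1 genes in D-EPSCs and for 13 of 16 in L-EPSCs, beside 61.0% and 79.0% of all genes. Of the PRC1 genes with at least 2-fold fewer bases in both EPSCs, those with the largest differences were Kdm2b, Cbx7, Pcgf2, Rnf2, Rybp and Phc3. Kdm2b, which recruits PRC1 to CpG islands, had 64.1, 16.5 and 6.70 kb. Cbx7, the reader of methylated H3K27 typical of ESCs, had 44.0, 16.5 and 8.28 kb, and Rnf2, the ubiquitin ligase, 13.8, 3.32 and 1.29 kb. At least 2-fold more H3K27ac bases were found for Bmi1 (0.784, 1.93 and 0.964 kb) in D-EPSCs and, outside PRC1, for Kdm6a, a demethylase of H3K27 (1.23, 3.25 and 2.14 kb), a change that 4.69% of all genes had in D-EPSCs and 1.69% in L-EPSCs. Kdm6b, the other demethylase, had 9.35, 6.12 and 3.82 kb.

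The gene most like each member was sought by the 6 percentages of its window covered (2 marks in 3 states, 1 list each), as the smallest Euclidean distance in percentage points. It was Gemin4 for Eed (1.68), Zfpm1 for Phf19 (1.66), Pigp for Ezh2 (3.40), Tspo for Ezh1 (3.49), Rnf149 for Suz12 (3.87), Zbtb38 for Mtf2 (5.50) and Ubl3 for Jarid2 (8.03). For Eed the values were 27.9%, 10.6% and 3.41% for H3K27ac, and 43.5%, 25.8% and 20.3% for H3K4me1. Gemin4 had 28.1%, 10.7% and 4.21%, and 44.3%, 26.9% and 20.7%.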

How the data were processed

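ChIP-seq peak lists for H3K4me1 and H3K27ac were used as deposited by the authors, 1 per cell state and mark. A row gives a peak's chromosome, its bounds and its name, so the unit is a peak position, and the values carry no score, signal or count. Per the study's methods, reads were aligned to mm9 with bowtie2 and broad peaks were called with MACS against input. The submitters' processing notes list Bowtie2 2.3.5, SAMtools 1.10, Trim Galore 0.6.3 and FastQC 0.10.1. The threshold of the peak calls, and whether replicates were pooled, are not given in the sources used here. Read depth is unknown from positions, and depth and threshold both move the number and width of peaks.

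Of the peaks, 0 passed a chromosome end of mm9 (NCBIM37) and 0 overlapped another peak of their list. Genes, exons and transcript starts were those of GENCODE M1, and the start site was the 5′ end of the gene. A peak was shared when at least 1 base overlapped. It was a promoter peak within 1 kb of the start site, and otherwise an intron peak if it lay inside the span and touched no exon. Genes with at least 1 kb covered in either state of a pair were compared. Windows of neighbouring genes overlap, so sums over all genes can count a base more than once. The overlap functions were tested on simulated data, with 0 errors in 1000 comparisons. Promoter and peak sequences were read from NCBIM37. Python 3.11.15, numpy 2.4.6, scipy 1.17.1 and matplotlib 3.10.9 were used.

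The members, the pathway lists and the markers were chosen with earlier results of these data known. All 7 members are described. Pathway genes were named at 2-fold fewer H3K27ac bases in both EPSCs or 2-fold more in either, with at least 1 kb, at most 6 per list by difference. The H3K4me1-free stretch, the 2 printed intron elements, the segments of Jarid2 and the genes just outside these rules were chosen after their values were seen. E130012A19Rik in the annotation is Epop. With 1 list per group no test was made, and the main counts stand beside those of all genes.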

Additional observations from a re-analysis of the deposited data

Results flagged for a closer look

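At 3 members the EPSC states lay on opposite sides of ESCs. The width of the H3K27ac peak on the start site of Eed differed from that of ESCs by 20 bp in D-EPSCs and by -477 bp in L-EPSCs, and that of Jarid2 by 2705 bp and by -1206 bp. At Jarid2 the gap before the next upstream peak lay farther from the start site in D-EPSCs than in ESCs. The bases of Phf19 under H3K4me1 differed by 317 in D-EPSCs and by -1112 in L-EPSCs. With 1 list per state these differences were not tested.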

How the results depend on the processing

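Of 126 alternative values of the counts and shares, 117 stayed within 1.5 times the main count or within the interval of the main share, and 9 did not. Of 378 alternative values of the covered bases of single members, 272 stayed within 1.5 times (for numbers of peaks, in the same direction) and 106 did not, 14 of which turned in sign. In lists of equal covered bases, members with at least 2-fold fewer H3K27ac bases than ESCs numbered 2 in D-EPSCs and 4 in L-EPSCs in place of 7 (15.4% and 17.8% of genes with at least 1 kb), and Ezh2 turned, with 1857 more bases in D-EPSCs and 1609 more in L-EPSCs, since the wide ESC peaks that make up such a list include none of its peaks. In the same lists, H3K4me1 turned at Ezh2 (193 more bases in D-EPSCs) and at Phf19 (642 more in L-EPSCs). In the widest 50% of each list Ezh2 had those 193 more and Phf19 had -839 bases in D-EPSCs relative to ESCs. With 50 kb on each side, L-EPSCs against D-EPSCs turned at Ezh1 for H3K27ac (-433 bases) and at Mtf2 for H3K4me1 (153 more). With peaks counted in place of bases, members with less H3K4me1 than ESCs numbered 3 in D-EPSCs (6 by bases) and 3 in L-EPSCs (7 by bases), and 4 in L-EPSCs against D-EPSCs (7 by bases), where 42.9%, 45.7% and 36.2% of all genes with a peak in either state had fewer. Ezh2 then had 3 more H3K4me1 peaks in L-EPSCs than in ESCs and 5 more than in D-EPSCs, Jarid2 had 19 and 22 more, and Ezh1 and Suz12 had 1 and 2 more in D-EPSCs than in ESCs. With 500 bp on each side of the start site, 3 instead of 6 members had H3K4me1 at the promoter in ESCs (35.4% of all genes). The share of ESC intron H3K27ac peaks with a peak in D-EPSCs was 4.65% when 50% of the ESC peak had to be covered (13.3% over all genes). In lists of equal length it was 25.0% (3 of 12) in D-EPSCs and 16.7% (2 of 12) in L-EPSCs, with fewer ESC peaks left (42.5% and 37.3% over all genes). The alternatives for the H3K4me1-free stretch and for the 2-fold criterion were chosen after seeing the data, and under these 5 the stretch stayed shorter in both EPSCs in every member that had one: 7 of 7, but 6 of 6 for the widest 50% of each list and for lists of equal covered bases.

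No paired analysis was possible because each peak list stands for both samples of a mark and state. For the same reason leaving out a replicate was not possible. Depth is unknown here, and read depth, the threshold of the calls and the amount of a mark cannot be told apart from positions alone.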
